A study of Mus musculus with 8 samples.

Results

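The genes described here are 44 genes of mitosis and the spindle, taken by symbol from the RNA-Seq table of P14 cells. All 44 symbols were among the 24303 genes of the table. P14 cells are CD8 T cells that carry a transgenic TCR for the GP33 peptide of LCMV, here from spleens of male or female mice on a C57BL/6 background, and every condition began with activation on plates coated with anti-CD3 and anti-CD28 for 2 days followed by medium with IL-2 and IL-15. The Effector condition was taken on day 7. The titles of its libraries do not give the last day of stimulation, and a figure legend of the paper names day 7 cells Effector 7d-stim. Acute-2d cells received no GP33 after activation, Acute-7d cells received GP33 until day 7 and then rested without peptide, and T_Dysf cells received GP33 until day 19 with TGF-β1 added from day 7, and all of these were collected on day 19. Viable CD8 T cells were sorted, and each of the 4 conditions has 2 libraries of polyA RNA. The activated cells were pooled on day 2, so this is a model grown in culture. The paper calls the 2 libraries of each condition biological replicates, but no source used here says whether they began from separate mice. P-values therefore measure the spread between these libraries, which may be technical except in Acute-7d, whose replicates differ in genes that mark the sex of the mice.

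A cell that divides must copy its chromosomes, condense them, attach them to the microtubules of a spindle, pull them apart and split. Cyclins with Cdk1 and the Plk1 and Aurora kinases drive entry into mitosis, the spindle checkpoint holds the cell until each kinetochore is attached, and the anaphase-promoting complex then ends mitosis by marking securin and the cyclins for breakdown. Most of these genes are transcribed late in the cell cycle, so their RNA is low in resting T cells and high in the fast division that follows activation. In bulk libraries a smaller share of dividing cells and less RNA per dividing cell cannot be told apart.

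The values are normalized counts, which are estimated read counts that the authors divided by a size factor for each library. The libraries held 19382147 to 24856224 reads on genes, with a median of 21477696, and every member lay above the floor of 3 reads (2.59 to 3.35 normalized counts) in every library, counting error only. The 3 libraries whose names carry the prefix RESUB, which are both Effector libraries and Acute-7d replicate 1, also differed from the other 5 in *Xist*, at 53.5 to 115 against 21871 to 30427 normalized counts, and in the Y-linked Ddx3y, at 1334 to 2161 against 0 to 2.59. These are the levels of cells from male mice in the 3 libraries and from female mice in the other 5, so the prefix, whose meaning the labels do not give, and the sex of the mice cannot be told apart. In T_Dysf replicate 1, 53.3% of values under 1000 reads were whole to within 0.02 reads, the lowest share of the 8 libraries, where the median was 73.7%. The 8 CD8 T cell markers summed to 77940 normalized counts or more in every library. Of the markers of other cells, *Cd4* had 1.01 to 13.0, *Csf1r* 6.49 to 21.0 and *Ncr1* 1.78 to 105. Other markers of CD4 T, myeloid, dendritic and NK cells were higher. Among them *Zbtb7b* had 1041 to 1625, *Lyz2* 187 to 438, *Xcr1* 101 to 546 and *Klrb1c* 243 to 1384. The 4 NK cell markers summed to 1038 and 1498 in the Acute-7d libraries and to 249 to 568 in the others, and their part in the results with Acute-7d was not tested.

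The 44 genes were high in Effector, intermediate in T_Dysf and low in both Acute conditions. Both Effector libraries lay above the other 6 for 43 of 44 genes, a pattern shown by 14.6% of all genes, and both T_Dysf libraries lay above all 4 Acute libraries for 41 of 44 genes, against 20.3% of all genes. The full order, with Effector above T_Dysf and T_Dysf above every Acute library, held for the same number, 41 of 44, against 4.39% of all genes. The 3 exceptions were *Cdc25b*, *Smc4* and *Pttg1*. Together the 44 genes made up 0.532% and 0.794% of the normalized counts in Effector replicates 1 and 2, 0.158% and 0.125% in Acute-2d, 0.0839% and 0.169% in Acute-7d, and 0.291% and 0.246% in T_Dysf. The 2 Acute-7d libraries thus stood apart from each other, with the share in replicate 1 below and the share in replicate 2 above both Acute-2d libraries.

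**Figure D1:**
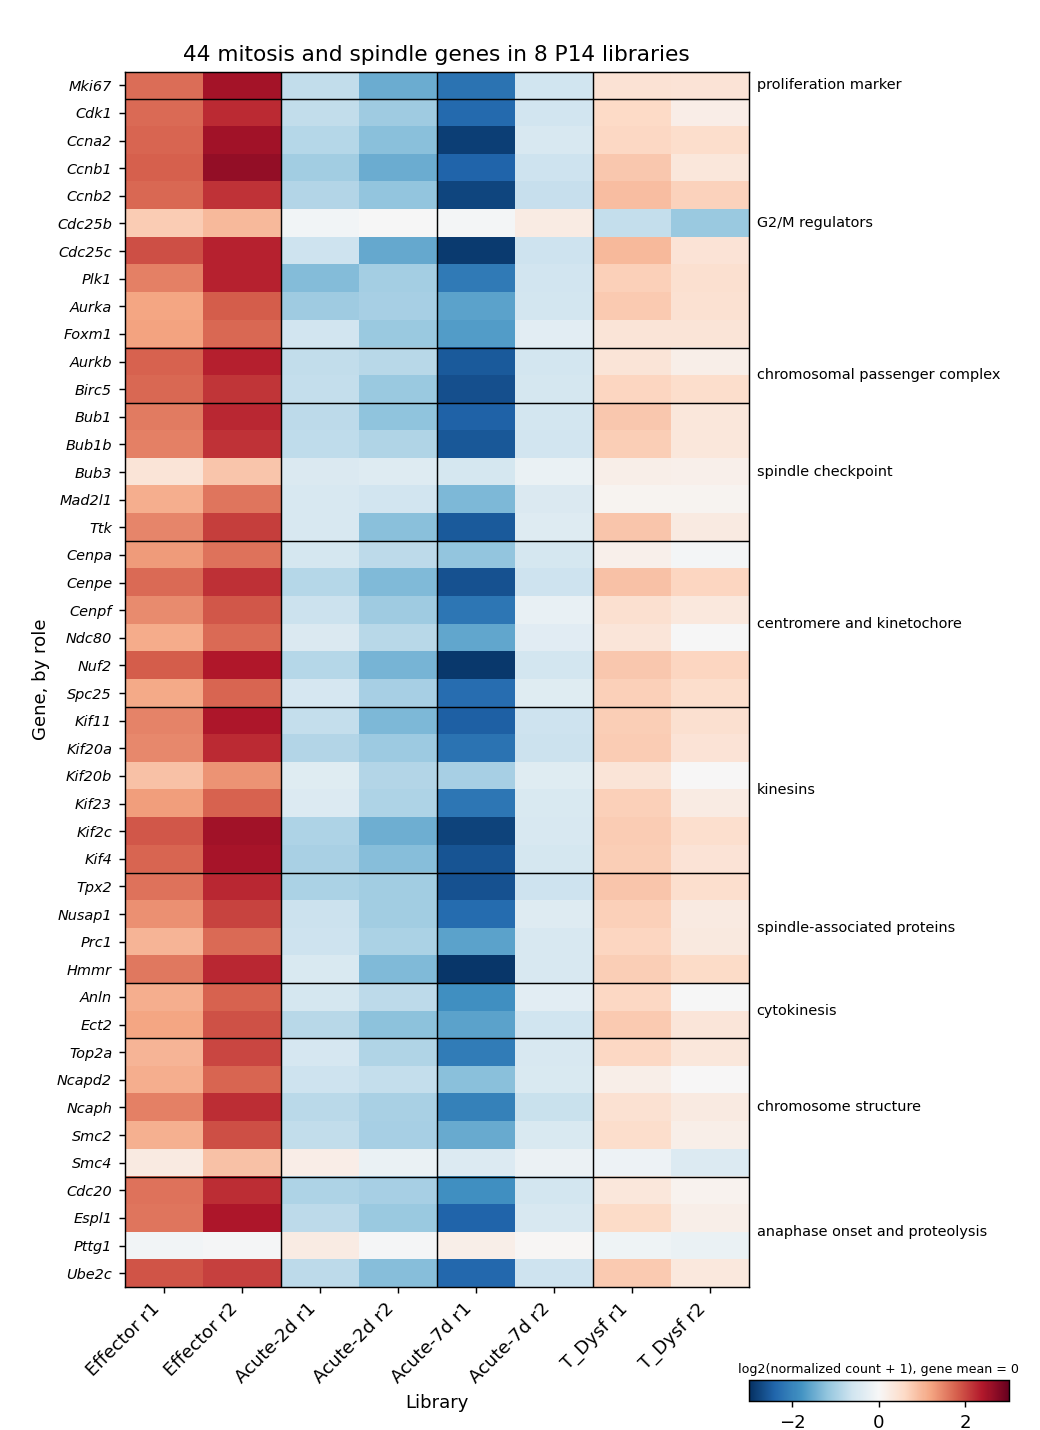
Each row is 1 of the 44 genes, ordered by role, and each column is 1 library (r1 and r2 are the replicates). Colour is log2(normalized count + 1) with the mean of each gene over the 8 libraries set to 0. Effector is red, T_Dysf pale red, and the Acute libraries blue, with Acute-7d r1 the darkest, and the rows of Cdc25b, Smc4 and Pttg1 break the pattern.

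To ask whether cells under lasting GP33 with TGF-β1 held more mitotic RNA than rested cells, T_Dysf was compared with Acute-7d. No library has lasting GP33 without TGF-β1, so the parts of GP33 and TGF-β1 cannot be told apart. The median member was higher by 1.82 on the log2(normalized count + 1) scale, a fold of 3.53, where the median of all genes was 0. Both T_Dysf libraries lay above both Acute-7d libraries for 41 of 44 members, against 26.0% of all genes. In limma, a gene was called when its fold was 2 or more and its p, adjusted by Benjamini-Hochberg over all 24303 genes, was below 0.05. With this rule 0 of 44 members were called higher, where 2.54% of all genes were, and 1 member was called lower, where 3.03% were. At an unadjusted p under 0.05 and the same fold, 33 members were higher, against 5.77% of all genes. Among the 12028 genes with a mean of at least 50 normalized counts, where all 44 members are, the same rule with adjusted p called 29 members higher, against 5.92% of these genes. The number of calls thus depended on which genes entered the fit, whereas the differences themselves were the same.

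The size of the difference depended on which Acute-7d library was used. Over Acute-7d replicate 1 the mean of T_Dysf was higher by a median of 6.68-fold, with a range of 0.557 for *Cdc25b* to 13.2 for *Cdc25c*, and 40 of 44 members were at least 2-fold higher. Over Acute-7d replicate 2 the median was 1.99-fold, with a range of 0.452 for *Cdc25b* to 2.86 for *Ccnb2*, and 21 members were at least 2-fold higher. In the fit without Acute-7d replicate 1 the median log2 difference was 0.98, and without replicate 2 it was 2.72. Leaving out any 1 of the other 6 libraries gave medians from 1.65 to 2.02. The 5 libraries without the prefix, all at the levels of female cells, hold replicate 2 as the only Acute-7d library. Within them the median was likewise 0.98.

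**Figure D2:**
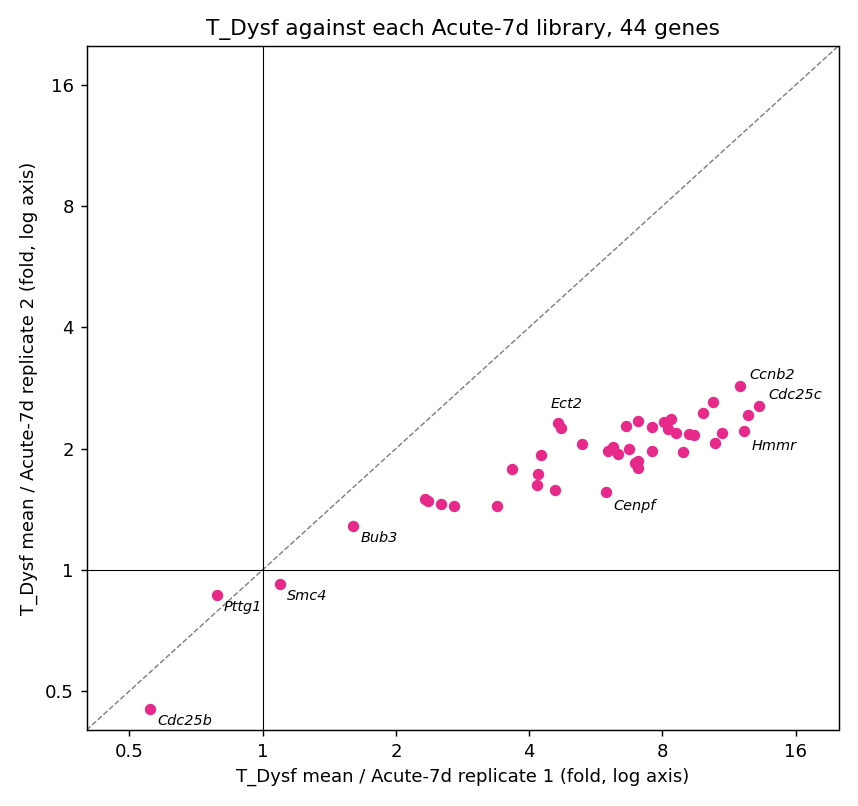
Each point is 1 of the 44 genes. The x axis is the T_Dysf mean over Acute-7d replicate 1 and the y axis the T_Dysf mean over Acute-7d replicate 2, both as folds on log axes, with the dashed line marking equal folds. All genes but Pttg1 lie below the dashed line, so that the fold over replicate 1 was the larger, and 41 lie above 1 on both axes.

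The Acute-7d libraries differed from each other more than the replicates of any other condition. Replicate 2 exceeded replicate 1 by a median of 3.32-fold, from 0.908 for *Pttg1* to 5.53 for *Hmmr*, and by at least 2-fold for 36 of 44 members, where 2.15% of genes with a mean of at least 50 reached that fold. Replicate 1 was the lowest of the 8 libraries for 41 members, as for 14.8% of genes with that mean. It lay below both Acute-2d libraries for 42 members, whereas replicate 2 lay above both for 39, and shares of all genes were not counted for these. In Effector, replicate 2 was higher for 44 of 44 members, as for 56.2% of genes with that mean. The median was 1.54-fold, against 1.05-fold for those genes, and the most was 1.97-fold, for *Top2a*. In Acute-2d, replicate 1 was higher for 40 members with a median of 1.31-fold, against 0.974 for those genes. In T_Dysf, the closest pair, replicate 1 was higher for 43 members with a median of 1.21-fold, against 0.990 for those genes. Acute-7d replicate 1 carries the prefix and the levels of male cells and replicate 2 neither, so the part of sex, of the prefix and of other differences between these replicates cannot be told apart.

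Among the regulators of entry into mitosis, 8 of 9 were higher in both T_Dysf libraries than in any Acute library. *Ccnb2* (chr9:70407692-70421547), which encodes cyclin B2, had 2399 and 3253 in Effector, 393 and 317 in Acute-2d, 107 and 448 in Acute-7d and 1387 and 1181 in T_Dysf, given here and below as normalized counts of replicate 1 and then replicate 2, with gene positions in GRCm38. This was the largest difference between T_Dysf and Acute-7d among the members, with a log2 difference of 2.54 ± 0.68 (SE, adjusted p = 0.0953) in limma. Its pseudogene entry *Ccnb2-ps* had 31.98 and 28.1 in Effector, 62.1 and 59.4 in Acute-2d, 51.3 and 75.7 in Acute-7d and 34.2 and 32.03 in T_Dysf, and with both entries summed the difference was 2.18, below that of *Nuf2* and *Cdc25c*, so its first place depends on how reads were split. *Ccnb1* (chr13:100778650-100786570), for cyclin B1, had 1549 and 2813 in Effector, 218 and 159 in Acute-2d, 84.1 and 291 in Acute-7d and 790.1 and 565 in T_Dysf. Both T_Dysf libraries lay above all 4 Acute libraries and below both Effector libraries, and its log2 difference was 2.09 ± 0.67 (SE, adjusted p = 0.134) over Acute-7d and 1.84 ± 0.67 (SE, adjusted p = 0.160) over Acute-2d. A pseudogene entry, *Ccnb1-ps*, had 443 and 847 in Effector, 41.7 and 56.7 in Acute-2d, 38.1 and 91.9 in Acute-7d and 66.5 and 169.5 in T_Dysf, so the split of reads between these copies was not the same in both T_Dysf libraries and the values of *Ccnb1* are uncertain to that extent. With both entries summed its difference over Acute-7d was 1.87.

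*Cdk1* (chr10:69335146-69352938), the kinase that cyclin B activates, had 1639 and 2382 in Effector, 302 and 241 in Acute-2d, 100.4 and 338 in Acute-7d and 768 and 582 in T_Dysf. T_Dysf lay above each Acute library and below Effector, with a log2 difference of 1.85 ± 0.61 (SE, adjusted p = 0.141) over Acute-7d in limma. *Ccna2*, which encodes cyclin A2, had 3592 and 6150.4 in Effector, 599 and 448 in Acute-2d, 152 and 775 in Acute-7d and 1646 and 1554 in T_Dysf. Its Acute-7d libraries differed by 5.09-fold, so that replicate 2 was above both Acute-2d libraries and replicate 1 far below them. *Cdc25c* (chr18:34732993-34751533), a phosphatase that removes the inhibitory mark from that kinase, was the least abundant member per kilobase in T_Dysf and had 309 and 405 in Effector, 52.1 and 26.99 in Acute-2d, 10.04 and 52.2 in Acute-7d and 159 and 107 in T_Dysf. The log2 difference over Acute-7d was 2.44 ± 0.82 (SE, adjusted p = 0.149) in limma, and Acute-7d replicate 1 held the lowest value of any member.

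*Plk1* (chr7:122159439-122169873), a kinase needed for spindle assembly and mitotic exit, had 1592 and 2789 in Effector, 226 and 275 in Acute-2d, 128 and 375 in Acute-7d and 919 and 783 in T_Dysf. *Aurka*, the Aurora kinase of the spindle poles, had 1038 and 1592 in Effector, 215 and 227 in Acute-2d, 148 and 312 in Acute-7d and 778 and 625 in T_Dysf. In these 2 genes the Acute-2d libraries lay close together, and T_Dysf exceeded Acute-2d by log2 differences of 1.76 ± 0.57 (SE, adjusted p = 0.127) and 1.65 ± 0.41 (SE, adjusted p = 0.0699) in limma. *Foxm1* (chr6:128362967-128376146), a transcription factor that drives late cell-cycle genes, had 2039.6 and 2937 in Effector, 598 and 408 in Acute-2d, 278 and 714 in Acute-7d and 1156 and 1157 in T_Dysf. Its T_Dysf libraries were nearly equal, and its log2 difference was 1.37 ± 0.50 (SE, adjusted p = 0.170) over Acute-7d in limma. *Mki67* (chr7:135689784-135716361), which encodes the Ki67 proliferation antigen, had 16144 and 28620.2 in Effector, 3050.0 and 1817 in Acute-2d, 1096 and 3371 in Acute-7d and 6848 and 6734 in T_Dysf. The T_Dysf libraries were again close, at about the same distance above Acute-7d as the median member, with a log2 difference of 1.82 ± 0.63 (SE, adjusted p = 0.156) over Acute-7d and -1.66 ± 0.63 (SE, adjusted p = 0.151) against Effector in limma.

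**Figure D3:**
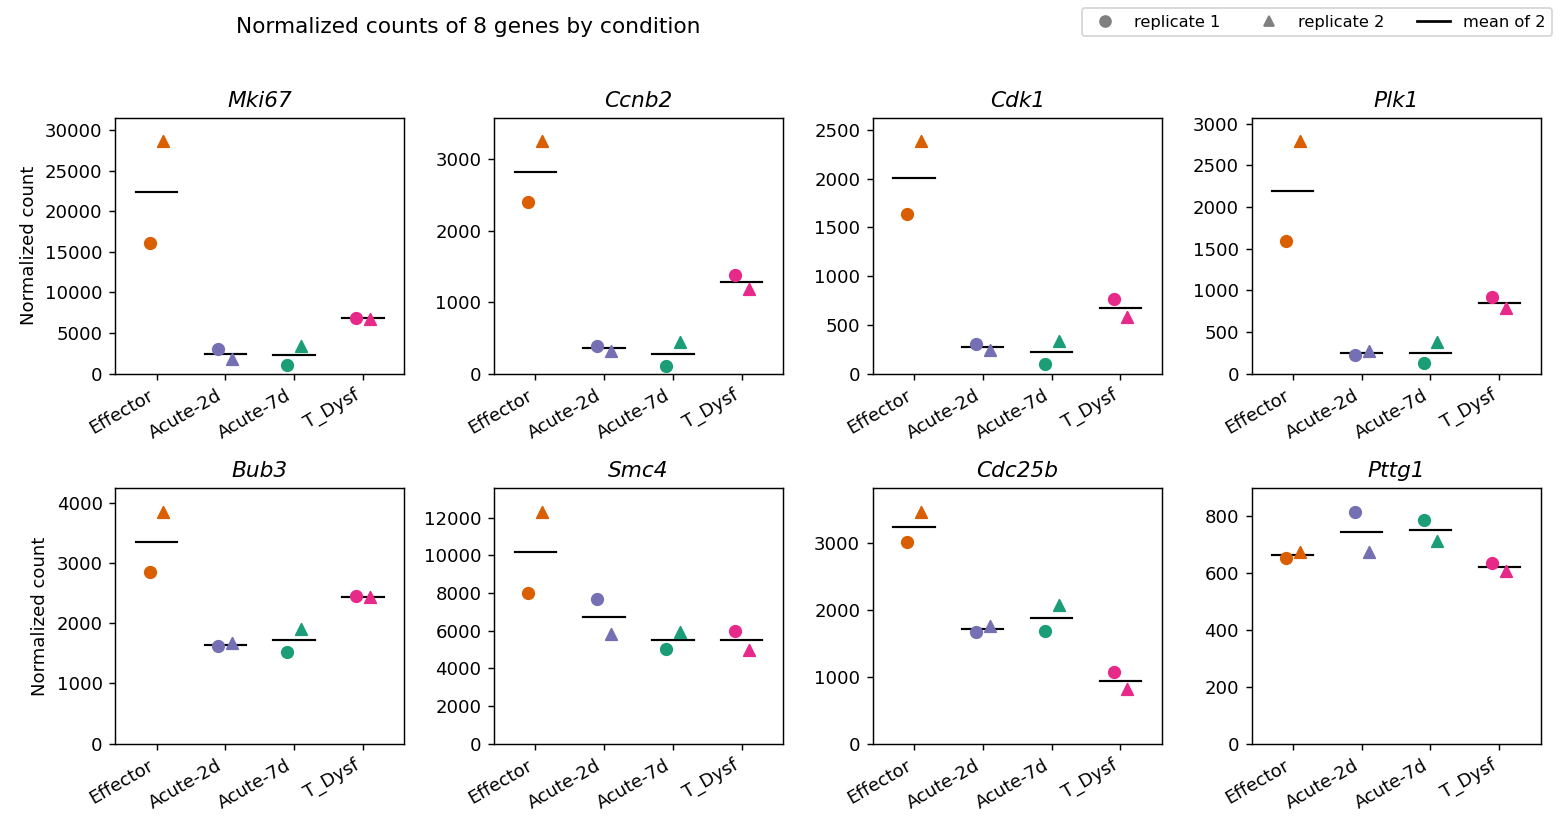
Normalized counts (y axis, linear and starting at 0) of 8 genes by condition, with circles for replicate 1, triangles for replicate 2 and a line at the mean of 2. Mki67, Ccnb2, Cdk1 and Plk1 show T_Dysf between Effector and the Acute libraries, Bub3 shows the same order with a smaller range, and Smc4, Cdc25b and Pttg1 do not show it.

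Late cell-cycle genes are known to carry a CHR (cell cycle genes homology region) element and CCAAT boxes near their start. Promoters are shown for *Ccnb2*, *Cdc20*, *Plk1* and *Birc5*, picked as textbook examples of genes with a CHR, and for *Bub3*, whose range was small. The windows run from 250 bases before the RefSeq transcript start to 30 bases after it, in GRCm38.p6, written 5′ to 3′ on the strand of the gene, with the CHR letters TTTGAA and the letters CCAAT, on either strand, in capitals. None of the matches shown overlap each other.
Ccnb2 (chr9:70421525-70421804, - strand): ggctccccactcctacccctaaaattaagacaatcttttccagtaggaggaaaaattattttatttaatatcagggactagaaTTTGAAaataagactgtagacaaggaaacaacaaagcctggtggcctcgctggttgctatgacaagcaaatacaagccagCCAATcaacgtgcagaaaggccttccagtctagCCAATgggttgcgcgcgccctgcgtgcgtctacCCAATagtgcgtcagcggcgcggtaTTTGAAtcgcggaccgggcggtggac
Cdc20 (chr4:118437314-118437593, - strand): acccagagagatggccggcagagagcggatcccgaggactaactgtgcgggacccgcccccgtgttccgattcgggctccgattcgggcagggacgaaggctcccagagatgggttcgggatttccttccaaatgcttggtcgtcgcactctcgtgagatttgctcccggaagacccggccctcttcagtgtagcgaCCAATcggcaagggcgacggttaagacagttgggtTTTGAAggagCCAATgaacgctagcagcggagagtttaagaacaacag
Plk1 (chr7:122159185-122159464, + strand): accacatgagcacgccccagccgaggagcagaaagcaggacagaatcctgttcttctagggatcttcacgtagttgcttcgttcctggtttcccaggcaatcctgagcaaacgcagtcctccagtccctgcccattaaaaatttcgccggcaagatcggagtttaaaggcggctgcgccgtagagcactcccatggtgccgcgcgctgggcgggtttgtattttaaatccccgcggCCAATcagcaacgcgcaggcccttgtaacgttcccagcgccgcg
Birc5 (chr11:117848987-117849266, + strand): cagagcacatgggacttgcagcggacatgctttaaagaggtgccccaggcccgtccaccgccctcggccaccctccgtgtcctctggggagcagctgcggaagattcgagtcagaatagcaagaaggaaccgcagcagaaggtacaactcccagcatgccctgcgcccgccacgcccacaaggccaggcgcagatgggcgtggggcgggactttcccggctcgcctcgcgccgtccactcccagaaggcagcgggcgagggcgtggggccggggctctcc
Bub3 (chr7:131560120-131560399, + strand): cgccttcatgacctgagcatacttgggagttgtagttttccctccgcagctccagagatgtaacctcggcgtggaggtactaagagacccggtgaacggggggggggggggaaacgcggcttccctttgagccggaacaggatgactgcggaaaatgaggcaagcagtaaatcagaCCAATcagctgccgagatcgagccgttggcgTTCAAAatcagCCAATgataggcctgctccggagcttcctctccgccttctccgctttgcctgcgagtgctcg

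Of the 44 members, 37 had a window of 250 bases before to 50 after the start in this RefSeq table, and *Ccna2*, *Cdc25c*, *Foxm1*, *Aurkb*, *Kif20a*, *Tpx2* and *Smc4* did not. TTTGAA was found in 27 of 37 windows (73.0%), against 14.01% of the 13674 windows of genes in the table and 12.3% of the 8636 windows of genes with a mean of at least 50. CCAAT was found in 27 of 37 (73.0%), against 38.7% of all windows, and both were found in 23 of 37 (62.2%), against 5.88%. The related letters TTTAAA were found in 9 of 37 (24.3%), against 10.3%. In *Ccnb2* the 3 CCAAT matches began 87, 54 and 21 bases before the start, with TTTGAA 4 bases after it, and in *Cdc20* TTTGAA began 18 bases before the start. In *Plk1* the TTTGAA match began 30 bases after the start, past the stretch shown, and the *Birc5* window held neither. *Bub3* held TTTGAA 43 bases before the start shown and CCAAT 74 and 32 bases before it, so the letters alone did not separate it from *Ccnb2*. From a second RefSeq start of *Bub3*, TTTGAA lies 167 bases before and CCAAT 198 and 156 bases before. The windows of *Cdc25b* and *Pttg1* held no TTTGAA, and the same was true of *Ccnb1*, *Birc5*, *Bub1*, *Mad2l1*, *Cenpe*, *Nuf2*, *Nusap1* and *Ncaph*. A match is a description of letters, and binding was not measured.

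The 2 members of the chromosomal passenger complex, which corrects faulty attachments and guides cytokinesis, followed the order of the median member. *Aurkb*, its kinase, had 2237 and 3345 in Effector, 394 and 370.3 in Acute-2d, 114 and 449 in Acute-7d and 866 and 742 in T_Dysf. *Birc5*, which encodes survivin, had 2587 and 3439.9 in Effector, 472 and 362 in Acute-2d, 124 and 539 in Acute-7d and 1214 and 1117 in T_Dysf. For both genes Acute-7d replicate 1 lay well below the other 7 libraries, while Acute-7d replicate 2 lay just above Acute-2d. Of the 5 checkpoint genes, all were higher in both T_Dysf libraries than in any Acute library, but by unequal amounts. *Bub1*, a checkpoint kinase, had 738 and 1204 in Effector, 143 and 108 in Acute-2d, 45.7 and 169 in Acute-7d and 435 and 318 in T_Dysf. *Bub1b*, which encodes BubR1, had 2048 and 3216 in Effector, 421 and 383 in Acute-2d, 122 and 479 in Acute-7d and 1192 and 901 in T_Dysf. Their log2 differences over Acute-7d were 2.07 and 2.10.

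*Ttk*, the Mps1 kinase that starts checkpoint signaling, had 423 and 642 in Effector, 109.5 and 63.7 in Acute-2d, 25.7 and 116 in Acute-7d and 271 and 185 in T_Dysf. *Mad2l1*, which encodes Mad2, an inhibitor of the anaphase-promoting complex, had 2509 and 3585 in Effector, 851 and 799 in Acute-2d, 463 and 871 in Acute-7d and 1256 and 1254 in T_Dysf. The 2 T_Dysf libraries of *Mad2l1* were almost equal and the log2 difference over Acute-7d was 0.98, under 2-fold. *Bub3* (chr7:131560222-131571895), whose protein brings checkpoint kinases to kinetochores, had 2844 and 3856 in Effector, 1614 and 1679 in Acute-2d, 1524 and 1904 in Acute-7d and 2446 and 2440.3 in T_Dysf. It kept the order of the other members in a narrow range, with a log2 difference of 0.52 ± 0.18 (SE, adjusted p = 0.152) over Acute-7d and -0.44 ± 0.18 (SE, adjusted p = 0.173) against Effector in limma.

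All 6 centromere and kinetochore genes were higher in both T_Dysf libraries than in any Acute library. *Cenpe*, a kinetochore motor, had 2445 and 3396 in Effector, 414 and 300.1 in Acute-2d, 122 and 485 in Acute-7d and 1365 and 1169 in T_Dysf. *Cenpf*, a large kinetochore-associated protein, had 2342 and 3224 in Effector, 566 and 422 in Acute-2d, 195 and 749 in Acute-7d and 1231 and 1105 in T_Dysf. Acute-7d replicate 2 was above both Acute-2d libraries for both genes, while replicate 1 was the lowest library. *Cenpa*, the histone H3 variant that marks centromeres, had 3807 and 4864 in Effector, 1082 and 913 in Acute-2d, 684 and 1092 in Acute-7d and 1745 and 1495 in T_Dysf. It was 1 of 2 members called lower in T_Dysf than in Effector, with a log2 difference of -1.41 ± 0.27 (SE, adjusted p = 0.0311) in limma, and its difference over Acute-7d was 0.90. *Ndc80*, of the complex that binds spindle microtubules, had 848 and 1266 in Effector, 289 and 217 in Acute-2d, 131 and 307 in Acute-7d and 496 and 388 in T_Dysf. Its partner *Nuf2* (chr1:169497934-169531464) had 1176 and 1783 in Effector, 185 and 127 in Acute-2d, 44.6 and 230.2 in Acute-7d and 589 and 528 in T_Dysf, and the second largest difference over Acute-7d, at 2.44 ± 0.79 (SE, adjusted p = 0.139) in limma. *Spc25*, of the same complex, had a log2 difference of 1.94 over Acute-7d, so that log2 differences within the complex ran from 1.13 to 2.44.

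The 6 kinesins, motors that slide or shorten microtubules, had log2 differences over Acute-7d from 0.88 for *Kif20b* to 2.26 for *Kif2c*, and in all 6 both T_Dysf libraries lay above the Acute libraries. *Kif11*, the motor that separates the spindle poles, had 2955 and 5619.9 in Effector, 636 and 413 in Acute-2d, 191 and 676 in Acute-7d and 1736 and 1455 in T_Dysf. *Kif2c*, which depolymerizes microtubules at centromeres, had 883 and 1393 in Effector, 127 and 86.4 in Acute-2d, 34.6 and 173 in Acute-7d and 409 and 346 in T_Dysf. The Acute-7d libraries of *Kif2c* differed by 4.99-fold. *Kif20a*, of the central spindle, had 1635 and 2871 in Effector, 328 and 283 in Acute-2d, 129 and 388 in Acute-7d and 1023 and 798 in T_Dysf. *Kif23*, of the centralspindlin complex, had 1296 and 1852 in Effector, 407 and 288 in Acute-2d, 120.5 and 396 in Acute-7d and 888 and 646 in T_Dysf. For *Kif23* and not for *Kif20a*, Acute-7d replicate 2 fell between the Acute-2d libraries. *Kif4*, a chromosome-bound motor, had a log2 difference of 2.14 over Acute-7d.

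Spindle-associated proteins showed the same order in 4 of 4 genes. *Tpx2*, which activates Aurora A on the spindle, had 2704 and 4154 in Effector, 451 and 419.9 in Acute-2d, 141 and 568 in Acute-7d and 1542 and 1238 in T_Dysf. *Prc1*, which bundles microtubules at the midzone, had 1565 and 2529 in Effector, 499 and 400.3 in Acute-2d, 253 and 558 in Acute-7d and 1207 and 949.6 in T_Dysf. The log2 differences over Acute-7d were 2.28 and 1.51, and those of *Nusap1*, a microtubule-binding protein, and *Hmmr*, of the spindle poles, were 1.84 and 2.36. Of the cytokinesis genes, *Anln*, which encodes anillin of the contractile ring, had 425 and 682 in Effector, 139 and 116 in Acute-2d, 55.8 and 162 in Acute-7d and 311 and 199 in T_Dysf. *Ect2*, which activates RhoA at the division plane, had 626 and 1031 in Effector, 153 and 116 in Acute-2d, 89.3 and 179 in Acute-7d and 474 and 354 in T_Dysf. Both genes kept the order of the median member, with the replicates of T_Dysf 1.56-fold and 1.34-fold apart.

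Of the chromosome structure genes, *Top2a*, the topoisomerase that untangles sister chromatids, had 9118 and 17936 in Effector, 3154 and 2416 in Acute-2d, 1052 and 3211 in Acute-7d and 6977 and 5725 in T_Dysf. Its Effector replicates differed by more than those of any other member, at 1.97-fold. *Smc2*, a core subunit of condensin, had 2856 and 5257 in Effector, 816 and 682 in Acute-2d, 481 and 988 in Acute-7d and 1972 and 1540.0 in T_Dysf. *Smc4* (chr3:69004738-69034623), its partner in the condensin core, had 8024 and 12331 in Effector, 7681 and 5798 in Acute-2d, 5031 and 5950.5 in Acute-7d and 5986 and 4999.7 in T_Dysf. In contrast to *Smc2*, T_Dysf and Acute-7d overlapped for *Smc4*, and its log2 difference of -0.00010 ± 0.27 (SE, adjusted p = 1 in limma) was the smallest of the members. Acute-2d replicate 1 was almost as high as Effector replicate 1. *Ncapd2* and *Ncaph*, other condensin subunits, had log2 differences over Acute-7d of 0.94 and 1.71, with no overlap of groups.

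Among genes of anaphase onset, *Cdc20*, the activator of the anaphase-promoting complex, had 2447 and 3674 in Effector, 413 and 396 in Acute-2d, 221 and 534 in Acute-7d and 995 and 851 in T_Dysf. *Ube2c*, the ubiquitin-conjugating enzyme of that complex, had 2645 and 2975 in Effector, 415 and 295 in Acute-2d, 139 and 467 in Acute-7d and 1224 and 889.6 in T_Dysf. *Espl1*, which encodes separase, the protease that cuts cohesin, had 1864 and 3319 in Effector, 359 and 283 in Acute-2d, 116 and 437 in Acute-7d and 913 and 698 in T_Dysf. These 3 genes kept the order of the median member. *Pttg1* (chr11:43420250-43426251), which encodes securin, the inhibitor of separase, had 651 and 673 in Effector, 814 and 674 in Acute-2d, 784 and 712 in Acute-7d and 632 and 604 in T_Dysf. It was lower in both T_Dysf libraries than in any other library, yet within a range of 604 to 814 over all 8 libraries, and its log2 difference was -0.27 ± 0.11 (SE, adjusted p = 0.196) against Acute-7d in limma. Inhibitor and protease thus differed in their order across conditions: separase RNA was highest in Effector, where the RNA of securin was 651 and 673.

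*Cdc25b* (chr2:131186949-131198497), a Cdc25 phosphatase that acts early in the entry into mitosis, had 3005 and 3462 in Effector, 1670.3 and 1749 in Acute-2d, 1681 and 2073 in Acute-7d and 1063 and 810.5 in T_Dysf. It was high in Effector like most other members, but both T_Dysf libraries were the lowest of the 8. It fell in T_Dysf against Acute-7d, with a log2 difference of -1.01 ± 0.18 (SE, adjusted p = 0.0353) in limma, and this was the only member called in that comparison. Its fold was 2.01, just past the limit of 2, and the call was lost in several other fits, among them each of those that leave out 1 library. Against Effector its log2 difference was -1.80 ± 0.18 (SE, adjusted p = 0.00779), and against Acute-2d it was -0.88 ± 0.18 (SE, adjusted p = 0.0412), an adjusted p that passed at a fold that did not. Over the 8 libraries its Pearson correlation with the mean of the other members was 0.36, that of *Smc4* was 0.72 and that of *Pttg1* was -0.61, while *Bub3* had 0.96 and the others 0.97 or more. These are descriptions over 8 libraries that share conditions.

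**Figure D4:**
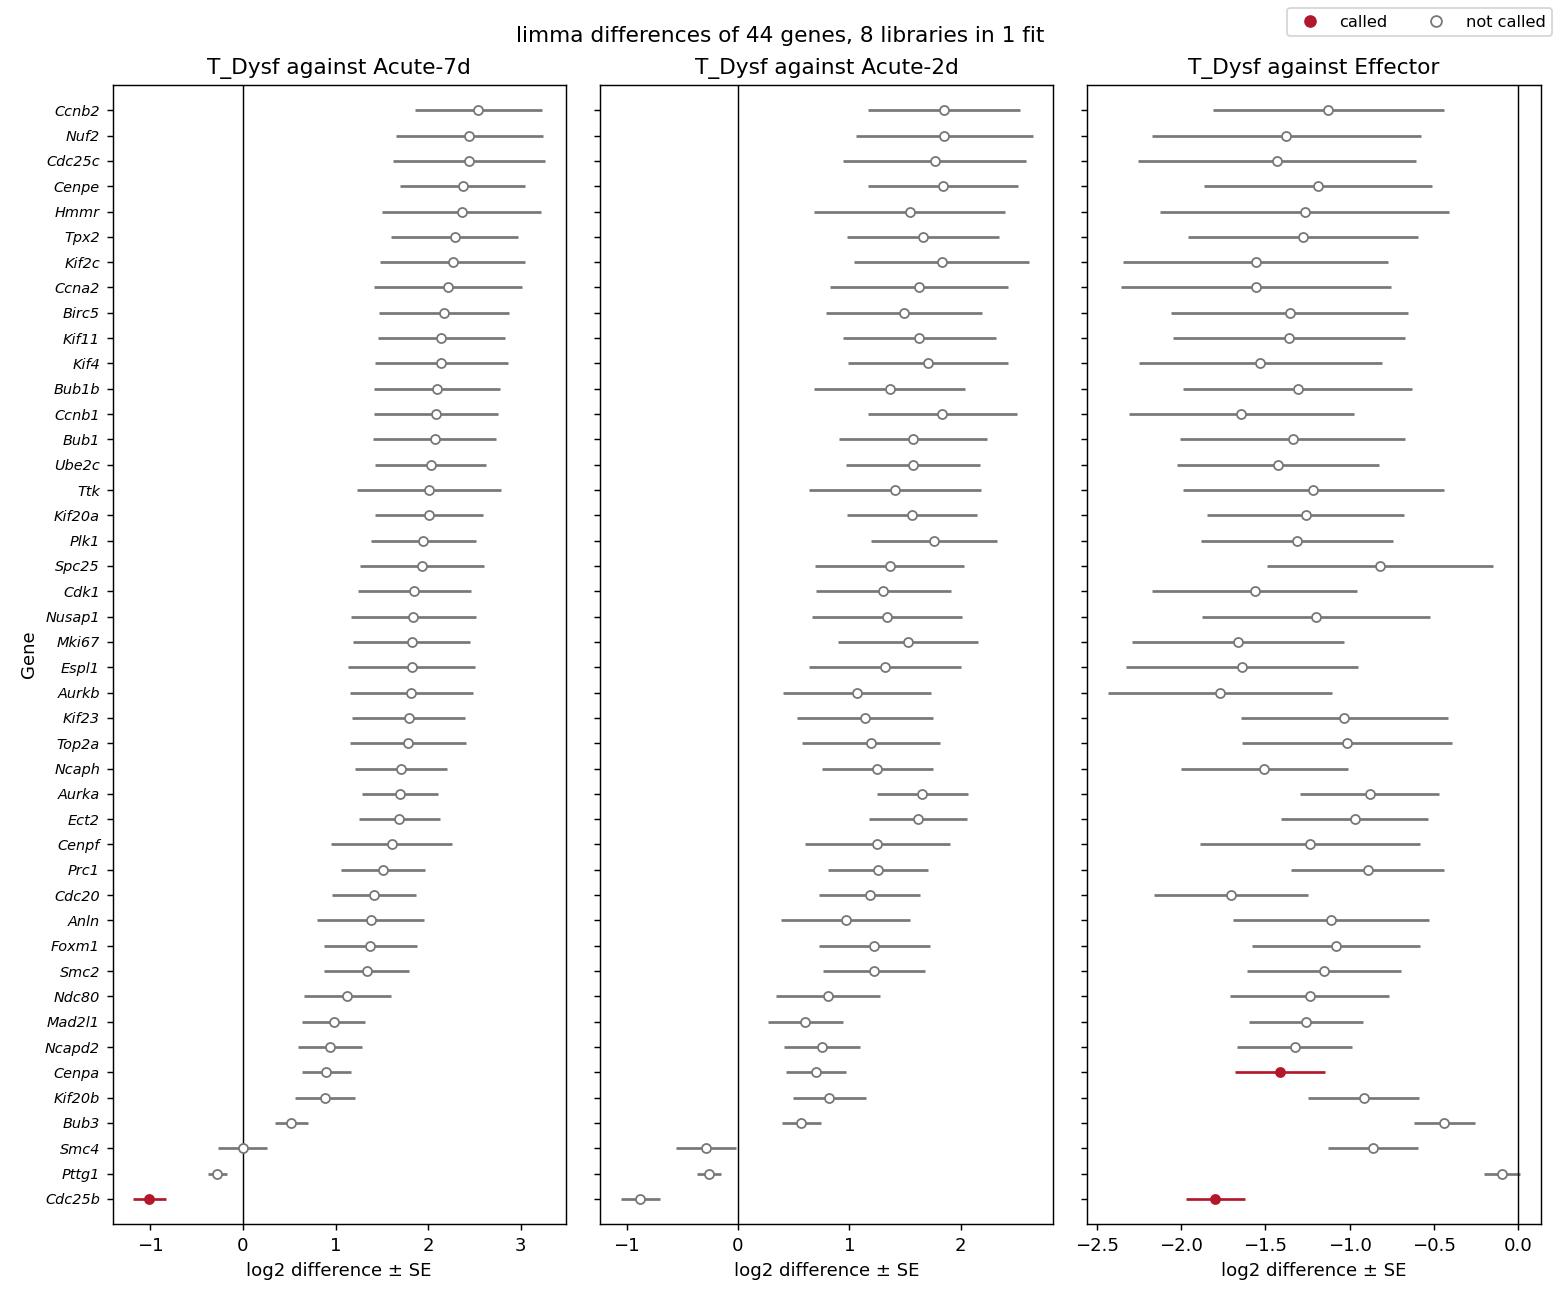
Log2 differences (x axis) with their standard errors from limma for the 44 genes (y axis, ordered by the first panel) for T_Dysf compared, from left to right, with Acute-7d, with Acute-2d and with Effector, with filled red points for called genes. Nearly all points lie right of 0 in the first and second panels and all lie left of 0 in the last, and only Cdc25b (first and last panel) and Cenpa (last panel) are called.

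The other comparisons of T_Dysf share its libraries with the first, so their values are given side by side and not as separate evidence. Against Acute-2d the median log2 difference was 1.35, from -0.88 ± 0.18 (SE, adjusted p = 0.0412) for *Cdc25b* to 1.85 ± 0.68 (SE, adjusted p = 0.165) for *Ccnb2* in limma. Both T_Dysf libraries lay above both Acute-2d libraries for 41 members, against 25.7% of all genes. With the adjusted rule 0 of 44 members were called higher, where 3.14% of all genes were, and at an unadjusted p under 0.05 there were 11, against 6.10%. Among genes with a mean of at least 50, 7 were called higher, against 6.29%: *Ccnb1*, *Ccnb2*, *Plk1*, *Aurka*, *Cenpe*, *Prc1* and *Ect2*. All 4 libraries of this comparison lack the prefix and have the levels of female cells. The fit of the 5 libraries without the prefix keeps these same 4 libraries, so its median of 1.35 was fixed in advance. Leaving out 1 library at a time gave medians from 1.15 to 1.53.

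Against Effector every member was lower in T_Dysf, with both T_Dysf libraries below both Effector libraries for 44 of 44, where 29.7% of all genes showed this. The median log2 difference was -1.27, and 2 members, *Cdc25b* and *Cenpa*, were called lower, where 4.75% of all genes were. Among genes with a mean of at least 50, 10 members were called lower, against 10.2%: *Mki67*, *Cdk1*, *Cdc25b*, *Aurkb*, *Mad2l1*, *Cenpa*, *Ndc80*, *Ncapd2*, *Ncaph* and *Cdc20*. Leaving out 1 library at a time gave medians from -1.59 to -0.96. Both Effector libraries have the prefix and the levels of male cells and both T_Dysf libraries the levels of female cells, so that sex, prefix and condition cannot be told apart, and with a term for the prefix, which rests on the Acute-7d pair, the median was -3.04.

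Effector cells stood furthest from the rested cells. The same limit of sex and prefix holds in full for the comparison with Acute-2d, and in part for that with Acute-7d. Over Acute-7d the median log2 difference of the members was 3.22, a fold of 9.32, and 35 of 44 members were called higher, where 4.18% of all genes were. Over Acute-2d it was 2.72, a fold of 6.57, and 24 were called higher, where 4.31% of all genes were. Among genes with a mean of at least 50 the counts were 40, against 8.62%, and 41, against 9.19%. The largest differences were those of *Cdc25c* over Acute-7d, at 3.87 ± 0.82 (SE, adjusted p = 0.0431), and of *Ccnb1* over Acute-2d, at 3.48 ± 0.67 (SE, adjusted p = 0.0334), in limma. Over either condition the number of calls depended strongly on which 1 library was left out. Leaving out 1 library at a time gave median log2 differences from 2.42 to 4.01 over Acute-7d and from 2.38 to 3.03 over Acute-2d.

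Between Acute-7d and Acute-2d 0 of 44 members were called in limma with either sign, where 0.169% of all genes were, and 0 passed at an unadjusted p under 0.05 and a fold of 2, against 3.74% of all genes. The groups overlapped for every member, and the share of all genes that do so was not counted. Acute-7d replicate 1 lay below both Acute-2d libraries for 42 members, and replicate 2 lay above both for 39. The median log2 difference was -0.44, from -0.82 for *Hmmr* to 0.13 for *Cdc25b*, and it became 0.39 without Acute-7d replicate 1 and -1.32 without replicate 2. The direction between these conditions therefore followed the choice of Acute-7d library.

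Beyond the members, 128 other genes of mitosis in 6 lists were read from the same fit, and these lists were chosen with earlier results of these data known. Against Acute-7d the median log2 difference of the 128 was 0.67, both T_Dysf libraries were above both Acute-7d libraries for 100 (26.0% of all genes), and 2 were called higher and 0 lower. With 2.54% of all genes called higher, 2 of 128 is under this rule no larger a share than the background. Among genes with a mean of at least 50, where all 128 are, 36 were called higher, against 5.92% of these genes. At an unadjusted p under 0.05 and a fold of 2, 44 were higher, against 5.77% of all genes. The count for the lists thus also depended on which genes entered the fit. The number called was not the same in every fit that left out 1 library. Medians were 1.17 for 34 other kinesins and spindle genes, 1.11 for 15 other mitotic kinases and Cdk regulators, 1.097 for 33 other kinetochore and passenger genes, 0.36 for 13 regulators of G2/M transcription, 0.30 for 17 genes of the anaphase-promoting complex and 0.18 for 16 condensin and cohesin genes. By size of change, *Haspin* led the kinases, *Cep55*, a midbody protein, led the spindle genes at 2.27, and *Cenpn*, of the inner kinetochore, led its list at 2.27. *Mybl2*, which encodes B-Myb, led the regulators of G2/M transcription at 1.71, *Fbxo5*, which encodes the inhibitor Emi1, led the anaphase-promoting complex list at 0.76, and *Esco2*, a cohesin acetyltransferase, led the condensin and cohesin list at 1.97. Of these only *Haspin* passed the test. Against Effector 12 of the 128 were called lower in T_Dysf, where 4.75% of all genes were, and 1 was called higher, where 4.47% were. In Effector 65 were called higher than in Acute-7d, where 4.18% of all genes were, and 57 higher than in Acute-2d, where 4.31% were. Between T_Dysf and Acute-2d 2 were called higher, where 3.14% of all genes were. Among genes with a mean of at least 50 this count was 13, against 6.29% of these genes.

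In the fit of all genes, 2 list genes were called higher against Acute-7d. They were *Incenp*, the scaffold of the passenger complex, and *Haspin*, the kinase that marks histone H3 at centromeres. *Incenp* had 4177 and 6124 in Effector, 983 and 911 in Acute-2d, 754 and 1051 in Acute-7d and 2446 and 1979 in T_Dysf, with no overlap between T_Dysf and the Acute conditions, and a log2 difference of 1.30 ± 0.26 (SE, adjusted p = 0.0473 in limma). *Haspin* had 496 and 784 in Effector, 177 and 143 in Acute-2d, 103 and 208 in Acute-7d and 5369.9 and 5421 in T_Dysf, a log2 difference of 5.20 ± 0.40 (SE, adjusted p = 0.00554 in limma), and it alone of the 128 was called higher in T_Dysf than in Effector. The gene lies at chr11:73135485-73138294 on the minus strand, inside the span of *Itgae* (chr11:73090583-73147446, plus strand), a TGF-β target that encodes CD103. *Itgae* had 80.4 and 50.2 in Effector, 101 and 100.4 in Acute-2d, 71.4 and 73.7 in Acute-7d and 40456 and 37825 in T_Dysf. Both genes were high in the same 2 libraries, and no source used here says that counting used strand, so reads of *Itgae* and *Haspin* cannot be told apart and the value of *Haspin* is uncertain.

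Of the members themselves, 12 of 44 share exon bases with another annotated gene of the table, and for 7 of them that gene had a mean that was no small share of the member's own (over 0.1 of it). The 7 are *Ccna2* with *Exosc9*, *Cdc20* with *Elovl1*, *Cdc25c* with *Gm3550*, *Kif20a* with *Cdc23*, *Kif4* with *Pdzd11*, *Nusap1* with *Oip5* and *Prc1* with *Rccd1*, and all lie on opposite strands. The log2 differences of these partners between T_Dysf and Acute-7d ran from -0.80 for *Gm3550* to 1.097 for *Oip5*, smaller than those of their members in each pair. Per kilobase of annotated exon, T_Dysf levels of the members ran from 27.0 normalized counts for *Cdc25c* to 1054 for *Smc4*, with 838 for *Ccnb2*, 705 for *Top2a* and 675 for *Mki67*.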

How the data were processed

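Gene expression was measured by RNA-Seq in 8 libraries, 2 for each of 4 conditions. Per the labels and the methods, the authors used STAR with mm10 for alignment, counted them against RefSeq transcripts in Partek Flow and deposited a table of signal values, which are counts normalized by the median ratio of DESeq2. The methods state a filter for genes with a maximum under 50, but 11128 genes of the deposited table are under it. Turned back to reads, 53.3% to 75.8% of values under 1000 reads in each library were whole to within 0.02 reads. The rest were not whole, and no count model was used. Tests used limma 3.58.1 in R 4.3.3, with linear models and moderated statistics that follow mean expression, on log2(normalized count + 1) with 4 group means over all 8 libraries and 4 residual degrees of freedom. P-values for each of 6 comparisons were adjusted by the Benjamini-Hochberg method over 24303 genes, and a gene was called at an adjusted p under 0.05 and a fold of at least 2. An exact permutation test of 2 libraries against 2 cannot go below p = 0.333, and none is given. Reads on genes were derived from the value of 1 read in each library, and intervals and floors from them cover counting error only.

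The members and gene lists were chosen with earlier results of these data known. Values in every library are given for 36 members by a fixed list and for Nuf2, and full statistics for the 3 largest and 3 smallest changes between T_Dysf and Acute-7d and for Mki67, Cdk1, Ccnb1, Bub3 and Foxm1. Of other genes, those with the largest change in each list and the 10 most like the members are named, apart from items that are not reported here, with the genes that are called or overlap a member named after their values were seen. Statistics given beyond these, such as those of Cdc25b, Cenpa, Plk1, Aurka and Incenp, were chosen in the same way. Alternatives were other pseudocounts, filters, scalings, thresholds, groups, a replicate block, a term for the prefix and each library left out, and the 5 libraries without the prefix and the sums with pseudogene entries were chosen after seeing the data. The scripts were tested on simulated data. Coordinates of genes are from GENCODE for GRCm38, and promoters are from RefSeq for GRCm38.p6. Tables and plots were made in Python 3.11.15 with pandas 2.3.3, numpy 2.4.6 and, for plots, matplotlib 3.10.9.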

Additional observations from a re-analysis of the deposited data

How the results depend on the processing

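The fit is small, with 2 libraries a group, and counts of called genes moved with the settings far more than the log2 differences did. Other pseudocounts (0.1 and 10), equal 75th percentiles, equal totals and quantile normalization kept the number of called members within 1.5 times in all 6 comparisons, and the list genes likewise except for 1 called between T_Dysf and Acute-2d at a pseudocount of 0.1. Counts below are given for T_Dysf against Acute-7d, T_Dysf against Acute-2d, T_Dysf against Effector, Effector against Acute-7d and Effector against Acute-2d, in this order, where they moved. The lowest mean of a member was 140 normalized counts. Single values were lower, down to 10.04 for Cdc25c in Acute-7d replicate 1, where 1 read was worth 1.12, so folds over that value rest on few reads. Every adjusted p rests on 2 libraries a group, and the part of depth was not tested.

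Members called numbered 1, 0, 2, 35 and 24. With genes of a mean or of a maximum of at least 50 they were 30, 7, 10, within 1.5 times and 41. With only the 2 groups compared they were 0, 8, 0, 0 and 0. With a replicate block they were 0, within 1.5 times, 1, 10 and 8, and with a term for the prefix, which splits libraries as sex does, 0, 7, within 1.5 times, within 1.5 times and 13. With unadjusted p they were 34, 11, 9, within 1.5 times and 41, and at an adjusted p under 0.1 they were 4, 2, 5, within 1.5 times and 41. With no minimum fold 1 member was called between T_Dysf and Acute-2d, which is Cdc25b. In the 5 libraries without the prefix, an alternative chosen after seeing the data, they were 0 against Acute-7d and 8 against Acute-2d. Leaving out 1 library at a time gave ranges of 0 to 14, 0 to 7, 1 to 8, 0 to 38 and 0 to 40, with residual degrees of freedom lowered and the lone library assumed to vary like the others, and 0 in each such fit for Acute-7d against Acute-2d.

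Called list genes numbered 2, 2, 13, 65 and 57. With the filters they were 36, 13, 37, both within 1.5 times. With only the 2 groups they were 1, 9, 0, 0 and 0, with the replicate block 1, 1, 8, 39 and 32, and with the term for the prefix 1, 5, 0, within 1.5 times and 7. In the 5 libraries without the prefix they were 1 and 9. Leaving out 1 library gave 1 to 12, 1 to 5, 0 to 18, 4 to 49 and 1 to 62.

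The median log2 difference of the members moved from 1.82 to 0.98 against Acute-7d with the term for the prefix and in the 5 libraries without it, from -1.27 to -3.04 against Effector with that term, from 3.22 to 4.01 for Effector against Acute-7d and from 2.72 to 4.43 for Effector against Acute-2d. Leaving out 1 library gave 0.98 to 2.72, 1.15 to 1.53, -1.59 to -0.96, 2.42 to 4.01 and 2.38 to 3.03. For Acute-7d against Acute-2d the median of -0.44 turned to 0.39 with the term, in the 5 libraries and without Acute-7d replicate 1, in a range of -1.32 to 0.39. Smc4 between T_Dysf and Acute-7d turned from -0.00010 to 0.12 without Acute-7d replicate 2 and to 0.13 without T_Dysf replicate 2, and was from -0.13 to 0.13 over all such fits. Only Acute-7d holds libraries with and without the prefix. The term for the prefix and the 5 libraries therefore give the same median of 0.98 as leaving out Acute-7d replicate 1, and are not separate from it. Beyond this, the cause of these changes was not tested.

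Replicate numbers are shared between conditions in the labels, but deviations of samples with the same number correlated from -0.199 to 0.197 over 6 pairs of conditions, with 2 over 0.1, so the numbers were not taken as pairs.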

Other observations

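Genes outside the members, lists and cell markers that followed the same course over the 8 libraries were sought among 11841 genes with a mean of at least 50 normalized counts, by Pearson correlation of log2(normalized count + 1) with the mean centred profile of the 44 members. The 10 highest, with r from 0.996 to 0.999 over 8 libraries that share conditions, included *Cdca2*, *Mcm10*, *Cdca3*, *Pclaf*, *Brip1*, *Knstrn*, *Diaph3*, *Dscc1* and *Hrob*. Several are known from DNA replication and repair and not from the spindle. *Mcm10*, which helps start replication forks, had 845 and 1688 in Effector, 131 and 95 in Acute-2d, 41.3 and 149 in Acute-7d and 413 and 336 in T_Dysf normalized counts, given as replicate 1 and then replicate 2. *Pclaf*, a PCNA-binding factor, had 5975 and 9579 in Effector, 858 and 498 in Acute-2d, 219.6 and 920.4 in Acute-7d and 2395 and 2309 in T_Dysf. T_Dysf lay between Effector and the Acute libraries in both genes, and Acute-7d replicate 1 was the lowest library. Both genes were picked by their likeness to the members in these same 8 libraries, so the shared order is no separate evidence.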
